A study of Mus musculus with 7 samples.

Results

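A set of 41 genes of the adult heart's contractile apparatus was followed in mouse left ventricle. It holds the myosin light chains, thick-filament proteins, titin and the M-band proteins, the thin filament, the proteins that set thin-filament length, and the Z-disc with its desmin, filamin and signalling partners. The genes were chosen by symbol, with earlier results of these data known. All 41 were found among the 22027 genes of the deposited tables, Murc under its current symbol Cavin4, and all 41 had enough reads to be tested. Their lengths in the tables ran from 499 bp for Myl2, the ventricular regulatory light chain, to 18817 bp for Ttn, titin, with a median of 1551 bp.

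RNA was sequenced from the left ventricle of telomerase-deficient mice, which the labels call G3, of strain C57BL/6J at 12 months of age. The libraries labelled G3 PGC1aOE (n = 3) came from such mice with PGC1alpha overexpressed, and the libraries labelled G3 (n = 4) from such mice alone, so that telomerase deficiency is shared by both groups. The promoter and cell type of the overexpression, the telomerase gene that was deleted and any pooling of animals are not given by the labels. Total counts were between 10106705 and 16056740 per library.

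Ppargc1a, which encodes PGC1alpha, did not stand higher under the label G3 PGC1aOE. Its level was 103, 43.9 and 58.0 CPM in G3 PGC1aOE 1 to 3, against 94.6, 56.7, 118 and 86.6 CPM in G3 1 to 4, with a log2 fold change of −0.38 and an SE of 0.34 (edgeR quasi-likelihood test, adjusted p = 0.847). The groups overlapped, so the message shows no rise under the label, and each direction below rests on the label alone. Whether message from the overexpressed copy is counted in this gene is not given. The sample descriptions also carry a code number, which is 55, 81 and 82 for G3 PGC1aOE 1 to 3 and 40, 67, 50 and 83 for G3 1 to 4, and letters whose meaning, like that of the number, is not stated. The letters end in G2 for G3 PGC1aOE 1, G3 1 and G3 3 and in G3 for the other libraries, although all 7 are labelled G3 or G3 PGC1aOE. A leading P followed by C stands in all libraries labelled G3 PGC1aOE and in none labelled G3. G3 4 has the P without the C, G3 1 and G3 2 have the C without the P, and G3 3 has neither. Since the meaning of these letters is not given, the codes do not show whether every library matches its group. Values within code numbers below 80 or of 80 and above, and within the codes G2 or G3, are given beside the results they touch.

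The sarcomere is the repeating unit of striated muscle, in which myosin of the thick filament pulls on actin of the thin filament. Thin filaments are anchored at the Z-disc, thick filaments are held in register at the M-band, and titin spans between both. Calcium binding to troponin moves tropomyosin off actin and lets myosin bind, and light chain phosphorylation and myosin-binding protein C tune that step. Serum response factor, a transcription factor that binds the CArG box, drives many of these genes in muscle.

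Promoter sequences were taken from RefSeq for the GRCm38.p6 build as the 250 bases before each start site, and were found for 34 of the 41 genes, with 48 promoters. A CArG box, which is the same on both strands, was searched for because it is the classical element of muscle genes. It was present in a promoter of 6 of the 34 genes (17.6%), namely Actc1, Fhl2, Ldb3, Myl3, Myom1 and Nebl, beside 1.62% of 27025 genes with a promoter in the table. By promoter the shares were 16.7% of 48 and 1.47% of 32851. The E-box CANNTG, bound by helix-loop-helix factors, was in a promoter of 82.4% of the 34 genes and of 69.3% of all genes. CATTCC, bound by TEAD factors and read on both strands, was in 26.5% and 14.4%, and TATAAA in 17.6% and 14.3%. These shares describe letters in a window and show no binding.

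The 4 promoters below are shown because they stand in the gene sets compared further on, 2 with a short message and 2 with a long one, and the CArG box is in capitals. Each is given 5′ to 3′ on the gene's own strand. Actc1 encodes cardiac actin and Myl3 the ventricular essential light chain, and both belong to the short set. Ldb3 encodes a PDZ-LIM protein of the Z-disc and Myom1 the M-band protein myomesin, and both belong to the long set. The Actc1 window is chr2:114052876-114053125 on the minus strand, with the box starting 47 bases upstream of the start site. The Myl3 window is chr9:110763428-110763677 on the plus strand, with the box 85 bases upstream. The Ldb3 window is chr14:34588682-34588931 on the minus strand, with the box 35 bases upstream. The Myom1 window is chr17:71019307-71019556 on the plus strand, with the box 99 bases upstream.
Actc1: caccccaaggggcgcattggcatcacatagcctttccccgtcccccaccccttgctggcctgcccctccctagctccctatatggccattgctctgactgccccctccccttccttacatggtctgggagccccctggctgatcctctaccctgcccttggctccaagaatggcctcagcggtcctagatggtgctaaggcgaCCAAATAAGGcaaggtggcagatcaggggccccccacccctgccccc
Myl3: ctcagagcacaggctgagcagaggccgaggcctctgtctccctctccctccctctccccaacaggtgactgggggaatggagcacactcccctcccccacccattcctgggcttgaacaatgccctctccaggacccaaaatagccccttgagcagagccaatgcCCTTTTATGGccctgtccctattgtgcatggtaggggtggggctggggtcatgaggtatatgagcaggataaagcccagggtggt
Ldb3: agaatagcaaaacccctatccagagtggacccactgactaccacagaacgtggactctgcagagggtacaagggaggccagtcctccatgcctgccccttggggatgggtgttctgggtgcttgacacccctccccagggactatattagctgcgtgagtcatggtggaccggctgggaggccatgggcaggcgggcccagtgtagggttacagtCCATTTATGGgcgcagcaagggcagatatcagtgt
Myom1: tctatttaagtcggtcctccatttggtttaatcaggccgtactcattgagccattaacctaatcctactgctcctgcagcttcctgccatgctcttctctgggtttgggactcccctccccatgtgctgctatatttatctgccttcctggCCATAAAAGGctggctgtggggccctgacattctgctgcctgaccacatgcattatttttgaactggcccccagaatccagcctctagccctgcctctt
A box was found in 2 of 10 genes with a promoter in the short set and in 2 of 10 in the long set.

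No gene of the set passed the test between the groups. With edgeR's quasi-likelihood test and Benjamini-Hochberg adjustment over all 12674 tested genes, 0 of 41 were called, beside 0% of all tested genes, and their adjusted p ran from 0.847 to 0.997. DESeq2 and limma voom also called 0 of 41. At an unadjusted p under 0.05 there were also 0 of 41, beside 4.32% of all tested genes (3.05% higher and 1.27% lower). By fitted log2 fold change, G3 PGC1aOE minus G3, 25 of 41 were below 0 (61%, beside 49.1% of all tested genes). The median over the 41 genes was −0.19, beside 0.01 over all tested genes. The median moved to 0.04 without G3 1 and to −0.48 without G3 PGC1aOE 1, and it was 0.07 with both G3 PGC1aOE libraries coded 81 and 82 left out. In bulk tissue, fewer cells of a type and less RNA per cell cannot be told apart.

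By sign alone, with no test between roles, the fold changes were distributed as follows. Both light chains were above 0, and so were 6 of 8 thin-filament genes, with a median of 0.26. Among these, Myl3 at 0.08 (SE 0.28) and Tnnt2 at 0.01 (SE 0.29) were −0.12 and −0.11 without G3 PGC1aOE 2. All 5 titin and M-band genes were below 0, with a median of −0.31, but without G3 PGC1aOE 3 the values were 0.22 for Obsl1, 0.037 for Myom1 and 0.062 for Myom3. The same held for 4 of 5 genes of thin-filament length control (median −0.34), 4 of 5 desmin, filamin and junction genes (median −0.29) and 4 of 5 signalling and turnover genes (median −0.32). Of the Z-disc genes the 4 long ones were below 0 and the 4 short ones above it, with a median of −0.06, and of the remaining thick-filament genes 2 of 3. The Z-disc signs also moved as libraries were left out, with Tcap at −0.17 without G3 PGC1aOE 2 and Synpo2l at 0.70 without G3 1.

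**Figure D1:**
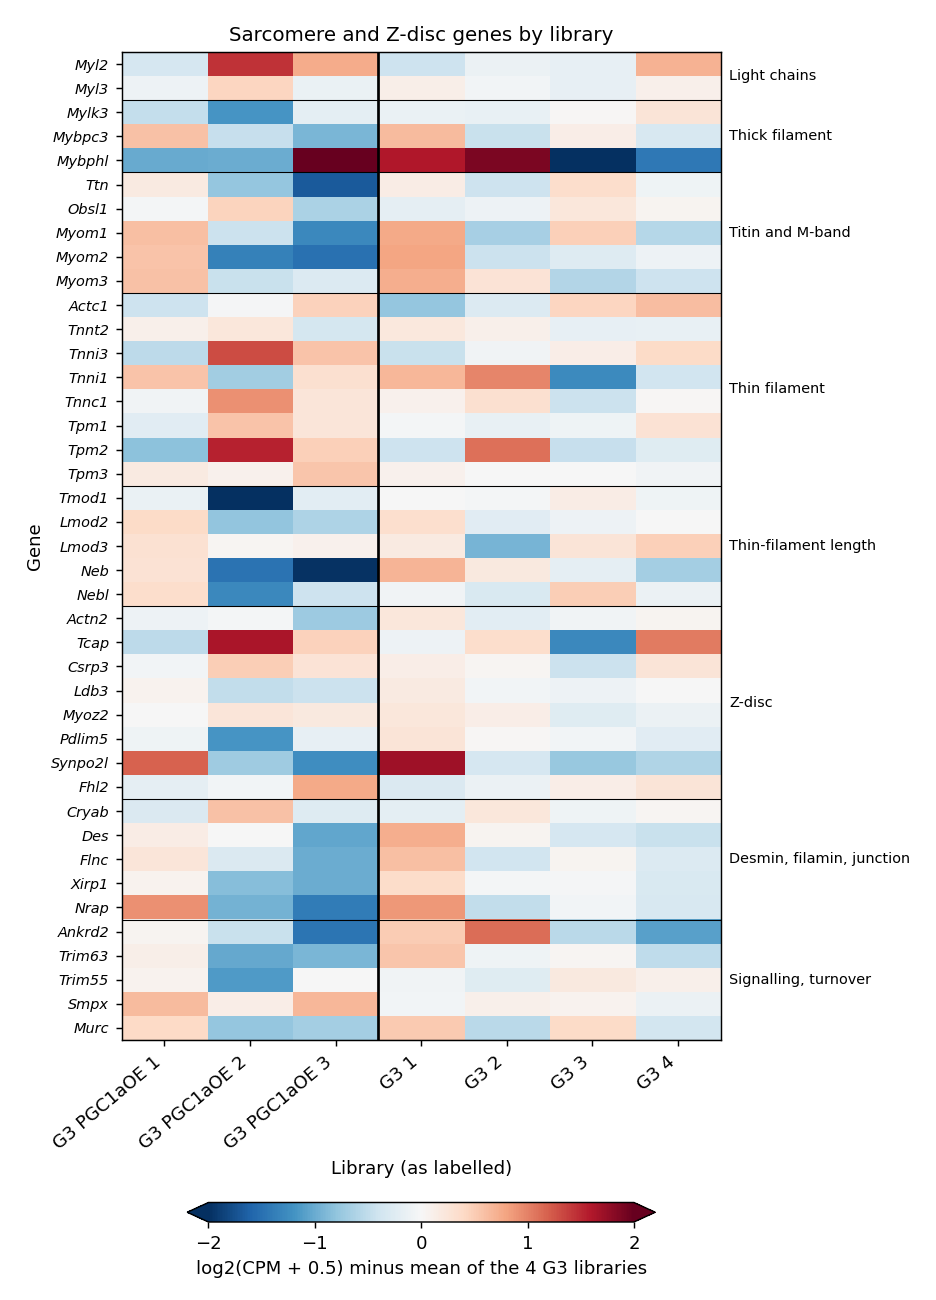
Each row is a sarcomere or Z-disc gene and each column a library, with the 3 libraries labelled G3 PGC1aOE left of the line and the 4 labelled G3 right of it. Colour gives log2(CPM + 0.5) minus the mean of the 4 G3 libraries on a linear scale that ends at −2 and 2. Of the 41 genes, 14 are lowest in G3 PGC1aOE 3 and 12 are highest in G3 PGC1aOE 2, while 14 are highest in G3 1.

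Levels below are scaled FPKM, that is, the deposited FPKM divided by the library's TMM factor, so that libraries can be compared and genes are set per length. Over all 7 libraries 12 genes averaged over 1000 and 4 averaged under 5. The order was Myl2 at 19156, Tnnt2 at 9746, Tnni3 at 8620, Actc1 at 6940.1 and Myl3 at 6792, down to Neb at 1.10 and Ankrd2 at 0.780. Tnnt2 and Tnni3, next to each other in that order, overlapped in their libraries, as did Actc1 and Myl3.

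Myl2, which sits on the myosin neck and is the target of cardiac myosin light chain kinase, measured 11281, 39087 and 23969 in G3 PGC1aOE 1 to 3, against 10727, 13218, 12729.5 and 23083 in G3 1 to 4. Library 2 of G3 PGC1aOE was the highest of the 7, library 1 lay within the G3 range, and the groups overlapped. Its log2 fold change of 0.73 had an SE of 0.44 and an edgeR adjusted p of 0.847. Myl3, the essential light chain, measured 6137, 8856 and 6039.9 in G3 PGC1aOE 1 to 3 and 7140.0, 6344, 5914 and 7112 in G3 1 to 4. Its libraries stayed within 1.50 times of each other. Myl3 was 54.4, 22.7 and 25.2% of Myl2 in G3 PGC1aOE 1 to 3, against 66.6, 48.0, 46.5 and 30.8% in G3 1 to 4, lowest in G3 PGC1aOE 2.

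Mylk3, cardiac myosin light chain kinase, was the gene with the smallest p among those below 0. It measured 207, 127 and 254 in G3 PGC1aOE 1 to 3, against 265, 260.0, 293 and 345 in G3 1 to 4. The group means were 196 ± 64.1 (SD, n = 3) for G3 PGC1aOE and 291 ± 39.2 (SD, n = 4) for G3. Every G3 PGC1aOE library was under every G3 library, and this also held on the deposited FPKM. Its log2 fold change of −0.57 had an SE of 0.29, a 95% interval from −1.22 to 0.08, an unadjusted p of 0.0796 and an adjusted p of 0.847 in edgeR. It ran from −0.80 to −0.34 as each library was left out. The difference in log2 CPM was −0.40 for code numbers below 80 and −0.94 for 80 and above, and −0.43 within code G2 and −0.74 within code G3.

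Groups without overlap were found for 3 of the 41 genes, Mylk3, Tmod1 and Smpx, beside 4.58% of all tested genes, and 2 of the 3 were lower, beside 2.39% of all tested genes. Tmod1, tropomodulin, which caps the pointed end of the thin filament, measured 124, 25.7 and 117 in G3 PGC1aOE 1 to 3, against 134, 132, 149.5 and 127 in G3 1 to 4. The value in G3 PGC1aOE 2 stood far under the other two of its group, which were close to G3, and the log2 fold change of −0.61 (SE 0.44) was −0.17 without that library. Smpx, a small protein of the costamere and Z-disc, measured 414, 291 and 421 in G3 PGC1aOE 1 to 3, against 257, 284, 279.5 and 246 in G3 1 to 4. All G3 PGC1aOE libraries were above G3, at a mean of 375 ± 72.7 (SD, n = 3) against 267 ± 18.2 (SD, n = 4), with a log2 fold change of 0.49, an SE of 0.24, an unadjusted p of 0.0617 and an adjusted p of 0.847 in edgeR. Its difference in log2 CPM was 0.60 below 80 and 0.51 at 80 and above, and 0.63 within code G2 and 0.40 within code G3. On the deposited FPKM, before scaling, the groups overlapped for Tmod1 and for Smpx.

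Mybpc3, cardiac myosin-binding protein C, measured 1065, 515 and 377 in G3 PGC1aOE 1 to 3 and 1098, 523, 783 and 568 in G3 1 to 4. Libraries 1 of both groups were high and G3 PGC1aOE 3 was lowest. Ttn, the elastic filament between Z-disc and M-band, measured 193, 98.6 and 52.9 in G3 PGC1aOE 1 to 3, against 189, 127, 216 and 159 in G3 1 to 4. G3 PGC1aOE 2 and 3 were the lowest of the 7 and G3 PGC1aOE 1 lay in the G3 range, with a log2 fold change of −0.59 (SE 0.42). The Ttn difference in log2 CPM was 0.16 for code numbers below 80 and −1.14 at 80 and above, and it was −0.066 within code G2 and −0.98 within code G3.

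The myomesins bridge thick filaments at the M-band. Myom1 measured 282, 139 and 76.0 in G3 PGC1aOE 1 to 3 and 315, 118, 260.1 and 126 in G3 1 to 4. Myom2, the isoform of adult fast-contracting muscle and heart, measured 1106, 291 and 266 in G3 PGC1aOE 1 to 3 and 1286, 552, 624 and 693 in G3 1 to 4. For both genes G3 PGC1aOE 3 was the lowest library and G3 1 the highest, and the groups overlapped. Myom2 was 392, 210.3 and 349.8% of Myom1 in G3 PGC1aOE 1 to 3 and 408, 467, 239.9 and 549.9% in G3 1 to 4. This ratio depends on the deposited lengths, which are 42.17% of the longest annotated transcript for Myom2 and 95.98% for Myom1. By CPM, Myom2 was under Myom1 in G3 PGC1aOE 2 (624 against 751) and G3 3 (1335 against 1410) and above it in the others. Myom3 was low, between 0.962 and 2.63 over all libraries, which came from 32 to 91 counts. Obsl1, an obscurin-like adaptor of the M-band, lay between 27.9 and 59.3, with a log2 fold change of −0.01.

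**Figure D2:**
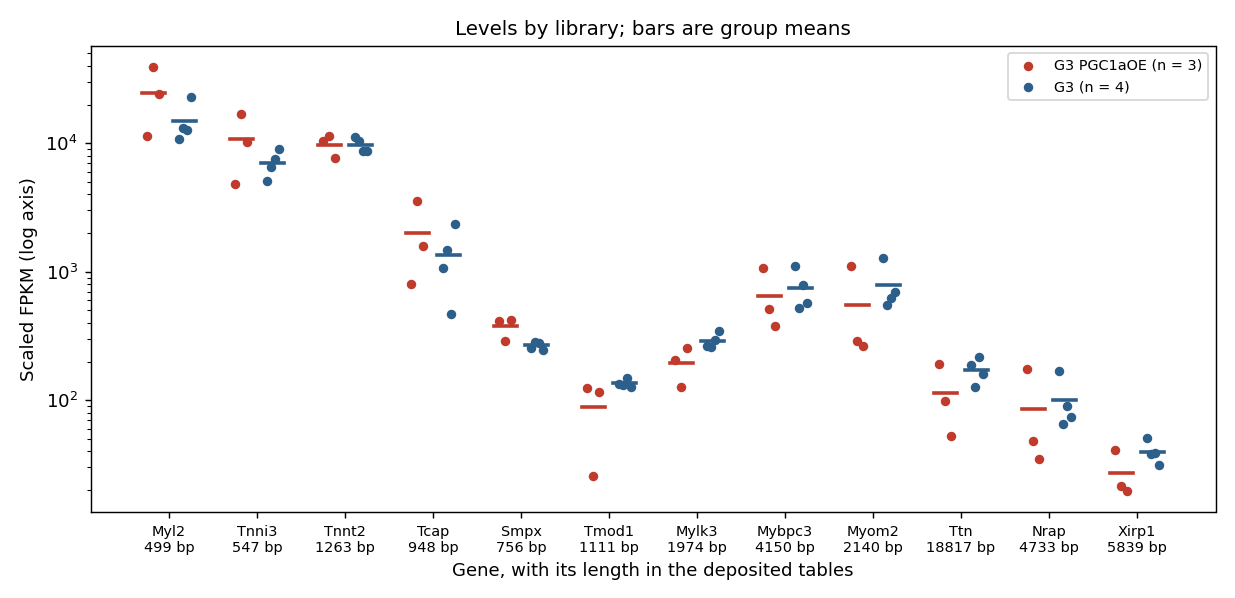
Points are libraries and bars are group means of 12 sarcomere genes in scaled FPKM on a log axis, with G3 PGC1aOE (red, n = 3) left of G3 (blue, n = 4), and the length of each gene in the deposited tables under its name. Mylk3, Tmod1 and Smpx are the genes whose groups do not overlap, while Myl2 spans 11281 to 39087 within G3 PGC1aOE.

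On the thin filament, Tnni3, the adult cardiac troponin I, measured 4799, 17008 and 10296 in G3 PGC1aOE 1 to 3, against 5091, 6588, 7555 and 9000.2 in G3 1 to 4. Its lowest and its highest library were both labelled G3 PGC1aOE, and the log2 fold change of 0.60 had an SE of 0.41. Tnnt2, cardiac troponin T, measured 10398, 11286 and 7612 in G3 PGC1aOE 1 to 3 and 11189.7, 10365, 8649 and 8719 in G3 1 to 4. It varied little, with a log2 fold change of 0.01 (SE 0.29). Tnnc1, the calcium-binding troponin C of heart and slow muscle, measured 3842, 7604 and 4784 in G3 PGC1aOE 1 to 3 and 4275, 5036, 2991 and 4113 in G3 1 to 4. Again G3 PGC1aOE 2 was the highest library, at a log2 fold change of 0.40 (SE 0.33). Actc1 lay between 3847 and 10075, with a log2 fold change of −0.05.

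Tnni1, the slow skeletal troponin I that the heart uses before birth, was close to absent, from 2 to 37 counts per library. It was 0.0419, 0.00311 and 0.0156% of Tnni3 in G3 PGC1aOE 1 to 3 and 0.0427, 0.0430, 0.00246 and 0.00865% in G3 1 to 4. The adult form made up nearly all troponin I message in each library of both groups.

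Tropomyosin lies along actin, and Tpm1 was its main gene here. Tpm1 measured 3953, 6882 and 5490.0 in G3 PGC1aOE 1 to 3 and 4484, 4176, 4334 and 5633 in G3 1 to 4, with a log2 fold change of 0.22. Tpm3, the slow-muscle and non-muscle gene, measured 24.2, 22.7 and 31.6 in G3 PGC1aOE 1 to 3, against 22.7, 21.3, 21.4 and 20.4 in G3 1 to 4. Its G3 libraries were within a narrow band, 2 of 3 G3 PGC1aOE libraries lay above it, and the log2 fold change of 0.29 had an SE of 0.20. As a share of Tpm1, Tpm3 was 0.613, 0.330 and 0.576% in G3 PGC1aOE 1 to 3 and 0.507, 0.511, 0.495 and 0.361% in G3 1 to 4.

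Tpm2, the beta-tropomyosin of skeletal and smooth muscle, measured 8.44, 44.5 and 21.3 in G3 PGC1aOE 1 to 3 and 11.3, 33.0, 10.9 and 12.7 in G3 1 to 4. It was high in G3 PGC1aOE 2, G3 2 and G3 PGC1aOE 3, and was 0.213, 0.646 and 0.387% of Tpm1 in G3 PGC1aOE 1 to 3 and 0.251, 0.791, 0.252 and 0.226% in G3 1 to 4. The log2 fold change of 0.54 (SE 0.58) was −0.20 without G3 PGC1aOE 2. The summed smooth muscle markers were high in the same libraries, at 88.7, 399 and 275 in G3 PGC1aOE 1 to 3 and 82.1, 197, 145 and 162 in G3 1 to 4. Of the 7 markers, 6 had a log2 fold change above 0 and none was listed at 0 in any library. Not every marker followed the sum. Smtn, smoothelin, the most abundant by CPM, measured 46.6, 99.8 and 68.9 in G3 PGC1aOE 1 to 3 and 28.5, 52.6, 74.5 and 74.3 in G3 1 to 4, and Myocd, myocardin, which cardiomyocytes also express, was lowest in G3 PGC1aOE 2 at 3.54. Acta2, smooth muscle actin, measured 12.8, 154 and 113 in G3 PGC1aOE 1 to 3 and 22.6, 66.8, 41.8 and 43.1 in G3 1 to 4. Tagln, transgelin, chosen after its values were seen, measured 11.8, 118 and 68.7 in G3 PGC1aOE 1 to 3 and 14.3, 47.5, 11.4 and 24.1 in G3 1 to 4. Their part in the Tpm2 difference was not tested.

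Mybphl, a myosin-binding protein of atrium and conduction system, had the widest spread of the genes detected in every library and was chosen for that after its values were seen. It measured 0.851, 0.855 and 22.4 in G3 PGC1aOE 1 to 3 and 7.14, 8.79, 0.211 and 0.530 in G3 1 to 4, from 3 to 389 counts. The values were high in G3 PGC1aOE 3, G3 1 and G3 2 and near 0 in the others, and the log2 fold change of 0.95 had an SE of 1.46 and was −2.28 without G3 PGC1aOE 3. Myl7, the atrial regulatory light chain, measured 0, 13.3 and 711 in G3 PGC1aOE 1 to 3 and 191, 239, 1.22 and 0.764 in G3 1 to 4, high in the same 3 libraries. The 8 atrial markers, of which 7 were tested and 6 had a log2 fold change above 0, summed to 4564, 595 and 3024 in G3 PGC1aOE 1 to 3 and 3148, 3405, 129 and 733 in G3 1 to 4. Except in G3 PGC1aOE 3, most of that sum was Nppa, the natriuretic peptide that ventricle under load also expresses. Myl7 was listed at 0 in G3 PGC1aOE 1, Sln in G3 4, and Bmp10 in G3 PGC1aOE 2, G3 3 and G3 4. The part of atrial message in the Mybphl values was not tested.

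**Figure D3:**
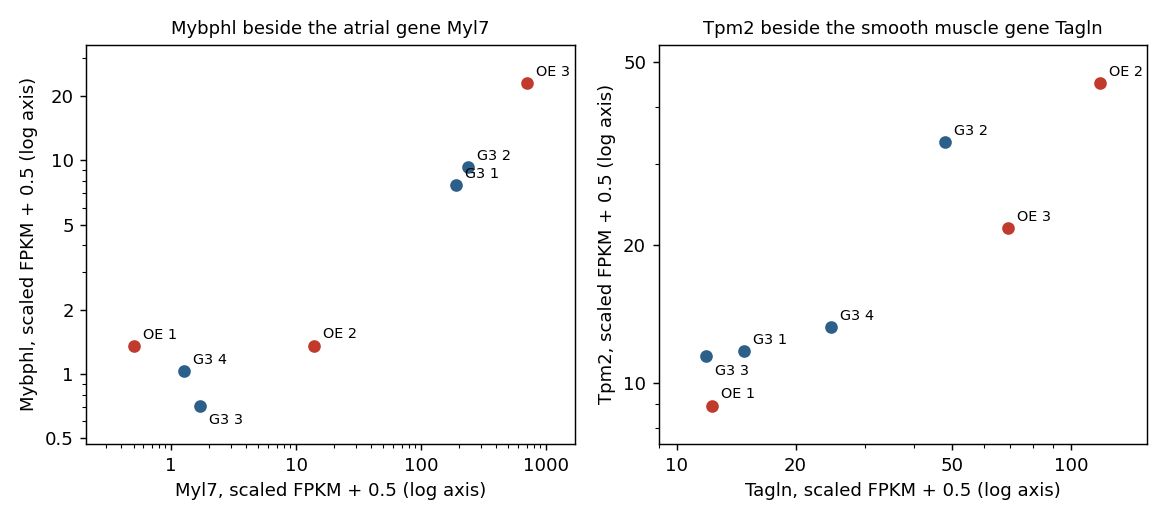
Each point is a library, with OE 1 to 3 for G3 PGC1aOE 1 to 3 in red and G3 1 to 4 in blue, on log axes of scaled FPKM with 0.5 added. Mybphl is high where the atrial gene Myl7 is high (left), and Tpm2 is high where the smooth muscle gene Tagln is high (right), in libraries of both groups.

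Among the proteins that set thin-filament length, Lmod2, the cardiac leiomodin that elongates actin at its pointed end, measured 294, 130.3 and 147 in G3 PGC1aOE 1 to 3 and 284, 191, 209 and 223 in G3 1 to 4. Lmod3, its skeletal relative, measured 30.1, 25.0 and 25.9 in G3 PGC1aOE 1 to 3 and 27.5, 12.7, 29.3 and 34.0 in G3 1 to 4. G3 PGC1aOE 1 and G3 1 stood highest for Lmod2, G3 2 lowest for Lmod3, and Lmod3 was 10.3, 19.2 and 17.7% of Lmod2 in G3 PGC1aOE 1 to 3 and 9.68, 6.65, 14.0 and 15.2% in G3 1 to 4. Nebl, nebulette, the short cardiac relative of nebulin at the Z-disc, measured 135, 43.2 and 79.4 in G3 PGC1aOE 1 to 3 and 102, 86.0, 149 and 97.7 in G3 1 to 4. Neb, the nebulin ruler of skeletal muscle, measured 1.58, 0.404 and 0.264 in G3 PGC1aOE 1 to 3 and 2.08, 1.47, 1.11 and 0.760 in G3 1 to 4. It was lowest in G3 PGC1aOE 2 and 3, with a log2 fold change of −0.85, an SE of 0.58 and an adjusted p of 0.847 in edgeR. Neb was 1.17, 0.934 and 0.333% of Nebl in G3 PGC1aOE 1 to 3 and 2.05, 1.71, 0.745 and 0.778% in G3 1 to 4.

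At the Z-disc, Tcap, telethonin, which joins the ends of titin, measured 799.8, 3579 and 1589 in G3 PGC1aOE 1 to 3 and 1074, 1479, 473 and 2364 in G3 1 to 4. It was highest in G3 PGC1aOE 2 and lowest in G3 3, and its log2 fold change of 0.56 had an SE of 0.57. Csrp3, muscle LIM protein, measured 1175, 1705 and 1480.2 in G3 PGC1aOE 1 to 3 and 1335, 1258, 906 and 1449 in G3 1 to 4, with overlapping groups. The shorter Z-disc messages Tcap, Csrp3, Myoz2, which encodes a calcineurin-binding calsarcin, and Fhl2, a LIM-domain adaptor, were all above 0, from 0.13 to 0.56. Each was smaller than its SE (0.57, 0.28, 0.26 and 0.31). The longer ones were all below 0. Actn2, the actinin that cross-links actin, had a log2 fold change of −0.27 (SE 0.28), Ldb3 of −0.26 (SE 0.26), the PDZ-LIM gene Pdlim5 of −0.41 (SE 0.31) and the actin-associated Synpo2l of −0.26 (SE 0.78).

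Des, the intermediate filament that ties Z-discs to each other, measured 1325, 1179 and 580.0 in G3 PGC1aOE 1 to 3 and 1965, 1232, 947 and 873 in G3 1 to 4. Cryab, a small heat shock protein that protects desmin, measured 959.8, 1763 and 987 in G3 PGC1aOE 1 to 3 and 1032, 1380.4, 1105 and 1211 in G3 1 to 4. Des was highest in G3 1 and lowest in G3 PGC1aOE 3, whereas Cryab was highest in G3 PGC1aOE 2. Xirp1, an actin-binding protein of the intercalated disc, measured 41.0, 21.5 and 19.6 in G3 PGC1aOE 1 to 3, against 50.4, 37.9, 38.6 and 31.6 in G3 1 to 4. Its lowest libraries were G3 PGC1aOE 2 and 3, and its log2 fold change of −0.53 had an SE of 0.31, an unadjusted p of 0.118 and an adjusted p of 0.847 in edgeR. Flnc, filamin C, had a log2 fold change of −0.32 (SE 0.35) and Nrap, which anchors the last actin of the myofibril, of −0.21 (SE 0.55).

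Trim63 and Trim55 encode the ubiquitin ligases MuRF1 and MuRF2, which mark sarcomere proteins for breakdown. Trim63 measured 126, 56.6 and 61.0 in G3 PGC1aOE 1 to 3, against 170.1, 109, 118 and 81.6 in G3 1 to 4. Trim55 measured 47.2, 20.2 and 44.6 in G3 PGC1aOE 1 to 3 and 42.8, 37.9, 51.1 and 48.2 in G3 1 to 4. Both were lowest in G3 PGC1aOE 2, and for Trim63 edgeR gave a log2 fold change of −0.56, an SE of 0.35 and an adjusted p of 0.847. Trim63 was 267, 280.1 and 137% of Trim55 in G3 PGC1aOE 1 to 3 and 398, 287, 232 and 169% in G3 1 to 4. Murc, a cavin of the muscle caveola, had a log2 fold change of −0.32 (SE 0.36). Ankrd2, a stretch-responsive partner of titin, had 12, 7 and 0 counts in G3 PGC1aOE 1 to 3 and 16, 34, 5 and 2 counts in G3 1 to 4, so its log2 fold change of −1.25 (SE 0.99) rests on few reads.

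Short and long genes of the sarcomere, by their length in the deposited tables, were then set against each other. The short set held the 10 light-chain and thin-filament genes, all under the median length of 1551 bp, which are Myl2, Myl3, Actc1, Tnnt2, Tnni3, Tnni1, Tnnc1, Tpm1, Tpm2 and Tpm3. The long set held 11 genes of the thick filament, M-band and Z-disc at or above it, which are Mylk3, Mybpc3, Ttn, Obsl1, Myom1, Myom2, Myom3, Actn2, Ldb3, Pdlim5 and Synpo2l. In the short set 8 of 10 genes were above 0, with a median log2 fold change of 0.26. In the long set 11 of 11 were below 0, with a median of −0.27, and 0 genes of either set passed the test. The long-set count was 6 of 11 without G3 PGC1aOE 3, 8 of 11 without G3 1 and 7 of 11 with code number as a covariate, and the short set had 6 of 10 above 0 without G3 PGC1aOE 2. With the code G2 or G3 as covariate, 11 of 11 long and 2 of 10 short genes were below 0, with medians of −0.24 and 0.16.

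The mean log2 CPM of the short set minus that of the long set was 0.30, 1.90 and 1.89 in G3 PGC1aOE 1 to 3, against 0.19, 1.17, 0.51 and 1.03 in G3 1 to 4. This gave 1.36 ± 0.92 (SD, n = 3) for G3 PGC1aOE and 0.72 ± 0.45 (SD, n = 4) for G3, a difference of 0.64 that is smaller than the SD within G3 PGC1aOE. G3 PGC1aOE 2 and 3 stood above every G3 library, and G3 PGC1aOE 1 stood next to G3 1 at the low end. For code numbers below 80 the difference was −0.32, and for 80 and above it was 0.86. Below 80, 7 of 10 short and 4 of 11 long genes were lower in the library labelled G3 PGC1aOE than in the mean of the 3 labelled G3, and at 80 and above 1 of 10 and 10 of 11 were lower. The direction differed between the code numbers, with 1 library on one side in each. By the letters, the 3 libraries coded G2 ran from 0.19 to 0.51 and the 4 coded G3 from 1.03 to 1.90, without overlap and with libraries of both labels in each. The difference between the labels was −0.049 within code G2 (1 library against 2) and 0.79 within code G3 (2 against 2). Within code G2, 6 of 10 short and 6 of 11 long genes were lower in G3 PGC1aOE, and within code G3 it was 2 of 10 and 11 of 11. The part of the code in the difference between the labels was not tested beyond these values.

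As a share of all counts, the short set took 4.33%, 6.54% and 4.33% in G3 PGC1aOE 1 to 3, against 4.42%, 4.80%, 4.20% and 4.99% in G3 1 to 4. The long set took 1.72%, 0.736% and 0.520% in G3 PGC1aOE 1 to 3, against 1.83%, 1.09%, 1.34% and 1.05% in G3 1 to 4. All 41 genes together took 7.17%, 8.41% and 5.65% in G3 PGC1aOE 1 to 3 and 7.51%, 7.03%, 6.38% and 7.04% in G3 1 to 4. The long set was low in G3 PGC1aOE 2 and 3, while the sum of all 41 genes had no such order. Of the 11 long genes, 7 had their lowest library in G3 PGC1aOE 3 and 3 in G3 PGC1aOE 2, and 8 had their highest in G3 1. Of the 10 short genes, 7 had their highest library in G3 PGC1aOE 2.

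**Figure D4:**
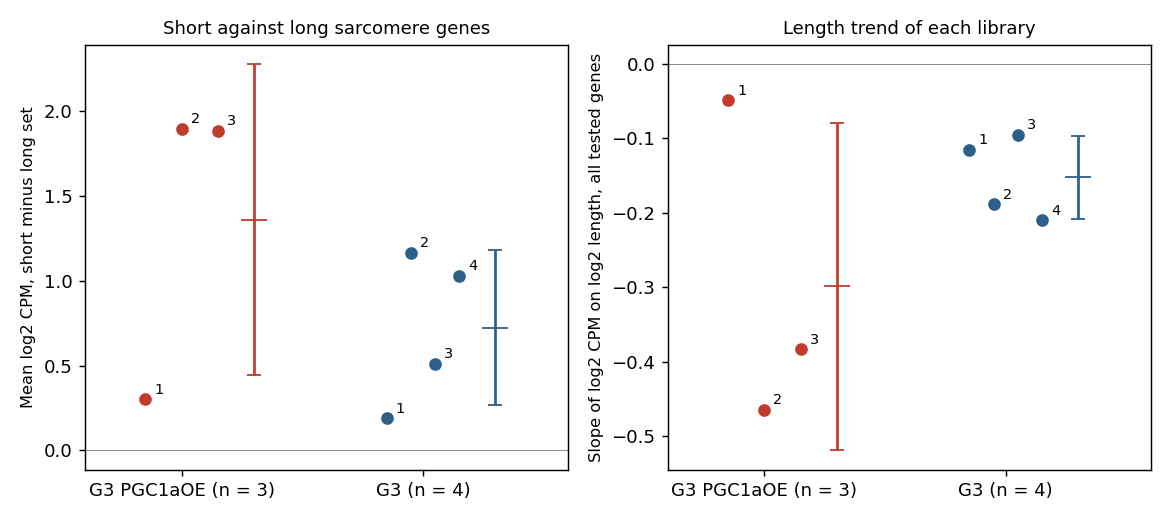
The left panel gives the mean log2 CPM of the 10 short sarcomere genes minus that of the 11 long ones in each library, with bars for the mean ± SD of G3 PGC1aOE (n = 3) and of G3 (n = 4). The right panel gives the slope of log2 CPM on log2 gene length over all 12674 tested genes in the same libraries, where G3 PGC1aOE 2 and 3 are lowest at −0.464 and −0.383.

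Fold change also went with length across all tested genes. Over all tested genes the slope of log2 CPM on log2 length was −0.049, −0.464 and −0.383 in G3 PGC1aOE 1 to 3, against −0.115, −0.189, −0.095 and −0.210 in G3 1 to 4. The slope also separated the codes, from −0.115 to −0.049 in the libraries coded G2 and from −0.464 to −0.189 in those coded G3. The share of counts from mitochondrially encoded genes was 27.7%, 32.4% and 42.4% in G3 PGC1aOE 1 to 3 and 24.8%, 26.0%, 31.4% and 34.5% in G3 1 to 4. Among all tested genes shorter than 1000 bp the median log2 fold change was 0.30 and 17.6% were below 0, and the 9 sarcomere genes of that length had a median of 0.40 with 2 below 0. From 1000 to 2000 bp the median was 0.05 for all genes, with 44.1% below 0, and −0.01 for 17 sarcomere genes, with 9 below 0. From 2000 to 4000 bp the values were −0.07 and 58.2% for all genes, beside −0.30 and 5 of 6 sarcomere genes. At 4000 bp and over they were −0.19 and 71.3% for all genes, beside −0.31 and 9 of 9 sarcomere genes. Spearman's rho of log2 fold change with length was −0.63 across the 41 genes and −0.34 across all 12674, as a description of genes that share the same 7 libraries.

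**Figure D5:**
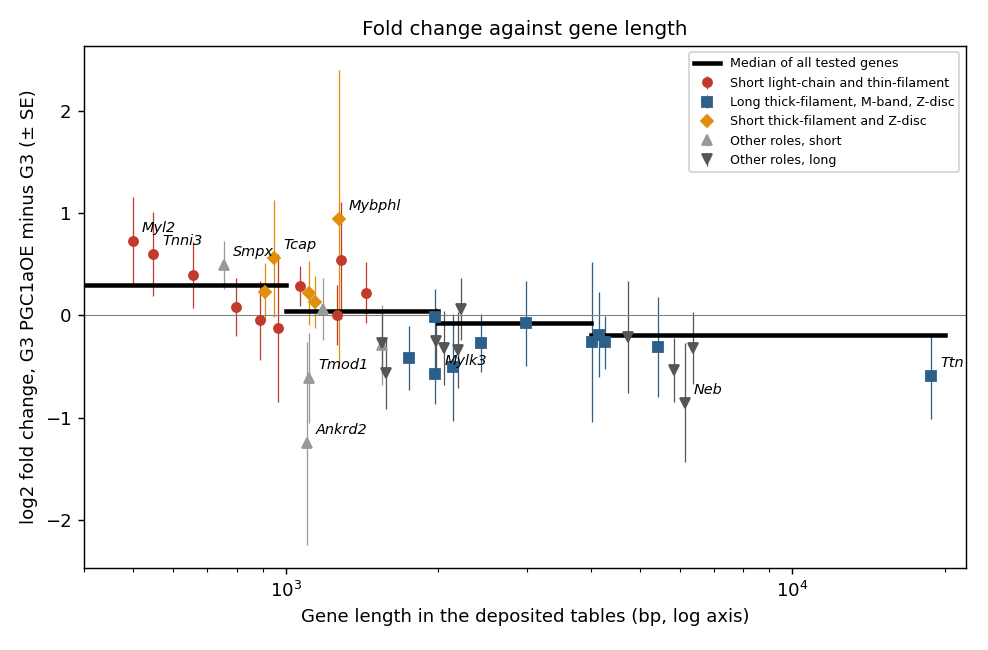
Each symbol is a sarcomere or Z-disc gene, placed by its length in the deposited tables (log axis) and its log2 fold change, G3 PGC1aOE minus G3, with bars of ± 1 SE. Black lines give the median of all tested genes within 4 length classes, which goes from 0.30 in the shortest to −0.19 in the longest class.

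With each library's length trend over all genes removed, the short set had a median log2 fold change of 0.03 with 4 of 10 below 0. The long set then had a median of −0.22 with 10 of 11 below 0, and the difference between the sets was 0.31 in place of 0.64. The group means behind it were 1.17 ± 0.45 (SD, n = 3) for G3 PGC1aOE and 0.87 ± 0.35 (SD, n = 4) for G3. The difference was −0.15 for code numbers below 80 and 0.41 for 80 and above. It was 0.061 within code G2 and 0.30 within code G3. With code number as a covariate as well, 7 of 11 long and 5 of 10 short genes were below 0. The remaining values in this paragraph keep the length trend, except where stated. Genes of the thick filament and Z-disc that are short, Mybphl, Tcap, Csrp3, Myoz2 and Fhl2, had 5 of 5 fold changes above 0, with a median of 0.23. With the trend removed, the same 5 genes ran from 0.014 for Myoz2 to 0.84 for Mybphl. Of the genes with other roles, 3 of 5 short ones were below 0 (median −0.29) and 9 of 10 long ones (median −0.32). Those 3 were Tmod1, Des and Ankrd2. The longest annotated transcript is 3158 bp for Tmod1 and 3028 bp for Des, above the median of 2233 bp for that measure, and Ankrd2 has few reads. By the same measure Lmod2 (1976 bp), Lmod3 (2215 bp), Trim63 (1886 bp) and Murc (2054 bp), counted as long above, are under the median. Their log2 fold changes were −0.25, 0.06, −0.56 and −0.32. A split of thin-filament and light-chain genes against thick-filament and Z-disc genes by role alone gave a difference of 0.42. By longest annotated transcript in place of deposited length, Tpm1 and Tpm3 left the short set, and the difference was 0.64. The part of length in these differences beyond the values given was not tested.

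Lengths in the tables were shorter than the longest annotated transcript for many genes, which bears on levels between genes. For 26 of 41 sarcomere genes the deposited length was under 90% of the longest protein-coding transcript in GENCODE vM21, as it was for 66.3% of 17411 genes. It was 18817 bp against 106824 bp for Ttn, 6126 bp against 22489 bp for Neb and 2140.0 bp against 5075 bp for Myom2. Whether reads outside the deposited length were counted is not given in the sources used here. Exons of 11 of the 41 genes overlap another annotated gene, such as Tnni3 with Dnaaf3 on the same strand and Cryab with Hspb2 on the opposite strand. The library kit does not mark strand, so reads of such pairs on opposite strands cannot be told apart.

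Other genes of the sarcomere, Z-disc and costamere were read from the same fit, 63 of 70 listed being tested. None was called, 40 of 63 were below 0, and the median was −0.12. Of the 27 that are shorter than 1551 bp, 11 were below 0 (median 0.04), and of the 36 longer ones 29 were (median −0.26). At an unadjusted p under 0.05 there were 4 of 63, all below 0, beside 4.32% of all tested genes in either direction and 1.27% below 0, namely Dmd, Cmya5, Synpo2 and Fhod3. Dmd, dystrophin, had a log2 fold change of −1.14 (SE 0.40), Cmya5, a large costamere protein, of −0.91 (SE 0.35), Synpo2, an actin-binding Z-disc protein, of −0.49 (SE 0.22) and Fhod3, a formin of cardiac sarcomeres, of −0.75 (SE 0.30). Those of smallest p above 0 were Lims2 at 0.91 (SE 0.41), Csrp2 at 1.03 (SE 0.53) and Flna at 0.52 (SE 0.30) in the Z-disc and costamere list. In the sarcomere list they were the non-muscle tropomyosin gene Tpm4 at 0.63 (SE 0.30), the slow troponin T gene Tnnt1 at 0.74 (SE 0.36) and the smooth muscle light chain gene Myl9 at 1.27 (SE 0.66). All had an adjusted p of 0.847 in edgeR.

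The tissue label was checked against markers. Summed over 9 ventricular markers, 5 of which are genes of this set, levels ran from 46352 to 101744 in G3 PGC1aOE and from 46392 to 73976 in G3. Of 12 skeletal muscle markers Tnnc2 was listed at 0 in all 7 libraries, and the fast myosins Myh1, Myh2 and Myh4 stayed at or under 0.0611. The sum over that list ran from 27.5 to 83.5 in G3 PGC1aOE and from 22.3 to 127 in G3, most of it Acta1, the skeletal actin that the heart also expresses. Among markers of other cell types, 7 of 8 for fibroblasts, 7 of 8 for endothelium and 6 of 6 tested for adipocytes had log2 fold changes above 0. The summed fibroblast level ran from 543.8 to 911 in G3 PGC1aOE, against 319 to 591 in G3, the endothelial one from 375 to 929, against 361 to 547, and the adipocyte one from 8.51 to 50.5, against 1.20 to 35.8. Their part in the sarcomere values was not tested.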

How the data were processed

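Messenger RNA of mouse left ventricle was measured in 3 libraries labelled G3 PGC1aOE and 4 labelled G3, grouped by genotype label. Per the labels' protocols, RNA was harvested with Trizol and an Illumina TruSeq kit, which does not mark strand, was used. The authors deposited read counts per Ensembl gene, with no normalization, and FPKM. The deposited FPKM equal the counts divided by the column total and a gene length, from which each gene's length was computed. Per the submitters' processing notes, Bowtie 0.12.2, CASAVA and the mm9 build were used. The counting program, its annotation and its use of strand are not stated. The labels do not say that libraries are separate animals, and the spread behind the p-values may therefore not be that between animals. Counts of libraries in the same group differed by more than counting noise alone, with a chi-square per gene from 36.9 to 156.

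In edgeR 4.0.16 (R 4.3.3), filterByExpr kept 12674 of the genes, leaving out 9353, and TMM factors scaled the counts. The quasi-likelihood F-test was robust and 2-sided and had group as its single term, and calls were made at a Benjamini-Hochberg adjusted p of 0.05 over all tested genes. Log2 CPM used a prior count of 2. Depth ran from 10106705 to 16056740 counts, and the biological coefficient of variation was 31.2%. Genes were assigned to roles from general knowledge. Values per library are given for the 5 members with the lowest p on either side of 0, the 2 of highest level in each role and the isoform pairs, and other members were picked after their values were seen. The members and lists were chosen with earlier results of these data known. The RefSeq promoters are of a later build than mm9 and are used for sequence only. Alternatives were other scalings, filters and tools (DESeq2 1.42.0, limma 3.58.1), pseudocounts on FPKM, covariates for the sample code, removal of length trends and leaving out libraries. The comparisons within code numbers and code letters were chosen after seeing the data.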

Additional observations from a re-analysis of the deposited data

Results flagged for a closer look

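Among the 4 libraries labelled G3, a library stood apart from the other three for 2 of 42 values examined, where chance flags about 1 in 20. Tpm2, beta-tropomyosin, measured 33.0 scaled FPKM in G3 2, and 10.9 to 12.7 in the other G3 libraries. Its gap to the nearest of them was 0.919 of the range of the group, and 6 of 7 smooth muscle markers, all but Smtn, were highest among the G3 libraries in G3 2 as well, whose part was not tested. Synpo2l, an actin-associated Z-disc gene, measured 98.0 scaled FPKM in G3 1, and 17.9 to 24.0 in the other G3 libraries, a gap of 0.925 of the range. In G3 PGC1aOE 1 to 3 it measured 68.9, 18.4 and 12.7, so that the library numbered 1 was the high one in both groups.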

How the results depend on the processing

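Across 22 alternatives, 3 of them chosen after seeing the data, 0 sarcomere and Z-disc genes of the set of 41 were called. Over all genes edgeR called 0 in the main design, DESeq2 called 3, the fit with a replicate block 6, and the fit without the G3 PGC1aOE libraries coded 81 and 82 called 1. The cause was not tested. The long set kept a median below 0 except without those 2 libraries, where it was 0.17, and it ran from −0.62 to −0.087 as each library was left out. Without those 2 libraries the median over the 41 genes was 0.074 and that of the short set −0.17. As each library was left out these medians ran from −0.48 to 0.040 and from 0.046 to 0.37, and the short minus long difference from 0.37 to 1.17. That difference was −0.32 for code numbers below 80 and −0.049 for libraries coded G2. Without those 2 libraries the log2 fold change was −0.40 for Myl2, 0.17 for Ttn, −0.55 for Tnni3, −0.088 for Tnnc1, 0.23 for Neb, 0.078 for Ldb3, 0.057 for Xirp1 and 0.082 for Trim63. With the length trend removed and code number as covariate it was −0.021 for Myl2 and −0.097 for Tnni3, and with the transcript length trend removed it was −0.047 for Tnnc1. These 11 changes of sign, among 900 alternative values of all 41 genes, are those of genes whose main log2 fold change exceeds its SE. A further 111 of the 900 values changed sign, in genes whose main log2 fold change does not exceed its SE.

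Whether libraries with the same number pair was checked from their deviations from the group means, which correlated at 0.456, 0.123 and −0.0863 for numbers 1 to 3, so the numbers were not taken to pair libraries. With the replicate block the median of the 41 genes was −0.28, with 26 below 0 and 0 called. Genes with few counts, such as Ankrd2 and Tnni1, are limited by depth.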
